A study of Mus musculus with 4 samples.

Results

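Translation initiation and elongation factors are the proteins that load ribosomes onto mRNA and carry them along it. Their mouse genes were taken as every gene symbol in which Eif or Eef is followed by a digit, leaving out the eIF2 kinases (Eif2ak) and symbols marked as pseudogenes (-ps). The pattern matched 70 rows of the expression tables, 4 of them eIF2 kinases and 5 pseudogenes, which left 61 of 39179 genes. Of these 61 genes, 55 reached 1 CPM (reads per 1000000 counted reads) in at least 2 libraries and were tested together with all other genes at that level, 13149 in all.

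The libraries came from mouse liver tumors, 2 labelled sorafenib and 2 labelled carrier. Both groups were C57BL/6 mice of genotype Myc/NrasG12V, in which hydrodynamic injection had put Myc and a mutant Nras into hepatocytes on transposons, and both were treated every second day for 3 weeks. Sorafenib is a kinase inhibitor used against liver cancer, and carrier is the labels' name for the control treatment. All 4 libraries are labelled with the same oncogenes and as liver tumors, a tissue that can also hold vessels, immune cells and hepatocytes of the surrounding liver. The labels do not say whether the replicates of a group came from separate mice, so a p-value here speaks only of the spread among the 4 libraries, part or all of which may be technical.

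Initiation starts when eIF2, bound to GTP and the initiator tRNA, joins the small ribosomal subunit with eIF1, eIF1A, eIF3 and eIF5. eIF4F (the cap-binding protein eIF4E, the helicase eIF4A and the scaffold eIF4G) brings the mRNA to that complex, and the 4E-BP proteins hold eIF4E back while they are unphosphorylated. eIF5B joins the large subunit, eEF1A then brings each aminoacyl-tRNA, and eEF2 moves the ribosome on by a codon. Many of these genes are known targets of MYC, which drives growth in liver tumors, and the mRNAs of the elongation factors carry a terminal oligopyrimidine (TOP) tract through which mTOR controls their translation.

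Because Myc is one of the injected oncogenes, the RefSeq promoter windows of the members (build GRCm38.p6, 250 bases before to 50 after an annotated start) were searched for CACGTG, the E-box bound by MYC and its partner MAX, which reads the same on both strands. Windows were found for 43 of the 55 tested members, 57 windows in all because some genes have several starts. CACGTG stood in 13 of the 57 (22.8%), against 7.15% of all 32851 RefSeq windows and 9.70% of the 12475 windows of tested genes. The 11 genes with a match were Eef2, Eef2k, Eif1b, Eif3a, Eif3f, Eif3k, Eif4a1, Eif4e, Eif4g1, Eif4h and Eif5a. The windows below cover the elongation factor eEF2, the 3 subunits of eIF4F, a pair of eIF3 subunits and eIF5A, each 30 bases from 5′ to 3′ on the strand of the gene, with CACGTG in capitals.
Eef2: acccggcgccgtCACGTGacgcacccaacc
Eif4a1: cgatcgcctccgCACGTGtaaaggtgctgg
Eif4e: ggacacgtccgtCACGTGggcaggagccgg
Eif4g1: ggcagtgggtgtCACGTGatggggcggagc
Eif3f: caagatatgattCACGTGgtataaatttag
Eif3k: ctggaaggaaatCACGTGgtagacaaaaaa
Eif5a: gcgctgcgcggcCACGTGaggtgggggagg
These stretches lie at chr10:81176576-81176605 (plus strand) for Eef2, chr11:69672595-69672624 (minus) for Eif4a1, chr3:138527192-138527221 (plus) for Eif4e and chr16:20672661-20672690 (plus) for Eif4g1. Those of Eif3f, Eif3k and Eif5a lie at chr7:108934335-108934364 (plus), chr7:28981915-28981944 (minus) and chr11:69920791-69920820 (minus). A match describes letters in these windows and is neither a binding site nor a cause. The ETS motif CCGGAAGT, searched on both strands, stood in 9 of the 57 windows (15.8%) and in 7 genes, against 7.64% of the windows of tested genes. The cAMP response element TGACGTCA stood in 1 (1.75%, against 2.93%). Windows of a gene can overlap and count 1 site more than once, as happened for ETS in Eif4e2 and for CACGTG in Eif5a. Log2 fold changes of the 7 genes with an ETS match ran from -1.50 (Eef1b2, the lowest member) to -0.37 (Eif2b4), and a relation to the motif was not tested. The ETS match of Eef1b2 spans chr1:63176821-63176850 (plus), with the motif in capitals.
Eef1b2: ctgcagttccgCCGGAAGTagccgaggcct
None of these 3 motifs was in the windows of Eif1, Eif5b, Eif4a2 or Eif2s1, nor in those of Eef1a1, Eif3b, Eif3m or Eef2kmt, among others. Members without a match had log2 fold changes of either sign, such as 0.77 for Eif1 and -1.06 for Eef2kmt. A missing match says only that these letters are absent there.

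The libraries held 4067427 and 5246530 reads for sorafenib replicates 1 and 2, and 5932939 and 5300806 reads for carrier replicates 1 and 2. Sorafenib replicate 1 was the shallowest: there a single read was worth 0.246 CPM, and a gene without reads may have had up to 0.738 CPM (3 reads). The sorafenib libraries were less alike (Pearson r = 0.937 across genes) than the carrier libraries (r = 0.978), and sorafenib replicate 2 stood apart (r = 0.878 and 0.889 with the carriers). Sorafenib replicate 1 was closer to the carriers (r = 0.961 with each) than to sorafenib replicate 2. Hepatocyte markers summed to 122763 and 111648 CPM in sorafenib libraries, against 132604 and 147325 CPM in carrier libraries. Most of that sum is Alb, and 7 of the 10 markers had a positive log2 fold change (median 0.26), led by Cyp2e1 (1.76) and Tat (1.64). Oncofetal and tumor markers (7 genes, among them H19, Afp, Gpc3 and Igf2) summed to 15265 and 122 CPM in sorafenib libraries, against 38277 and 33202 CPM in carrier libraries. H19 was the largest part of that sum in every library. Afp measured 1608 and 9.53 CPM in sorafenib libraries, against 5276 and 2790 CPM in carrier libraries. Myc itself measured 28.8 and 15.8 CPM in sorafenib libraries and 70.6 and 78.1 CPM in carrier libraries, a count that cannot separate the transposon from the endogenous gene. Nras measured 47.0 and 22.1 CPM in sorafenib libraries, against 88.3 and 83.4 CPM in carrier libraries. The library labelled sorafenib 2 therefore goes against its label as tumor tissue in these markers, and how much tumor it holds was not tested. It is called replicate 2 by its label, and a log2 fold change or median that moves by over 1.5 times without it is followed by its value from replicate 1 alone.

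Most translation factor genes were lower in the sorafenib libraries. The members took up 0.819% (Wilson 95% interval 0.810 to 0.827) and 0.527% (0.521 to 0.533) of the reads in sorafenib replicates 1 and 2. In carrier replicates 1 and 2 they took up 1.17% (1.16 to 1.17) and 1.06% (1.05 to 1.06). These intervals cover counting error only. In 45 of the 55 tested members both sorafenib libraries lay below both carrier libraries, while 41.3% of all tested genes did so. In 4 members (Eif1, Eif5b, Eif4e3 and Eif4ebp3) both lay above, against 17.5% of all tested genes, and in the other 6 (Eif2b4, Eif4enif1, Eif5, Eif1b, Eif1ad and Eif4a2) the groups overlapped. In these bulk samples fewer cells of a type and less RNA per cell cannot be told apart.

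No member passed the test across all genes. limma with Benjamini-Hochberg adjustment called 0 of the 13149 tested genes (0%) and 0 of the 55 members, with a smallest adjusted p among members of 0.240. At an unadjusted p under 0.05, 28 members were lower in sorafenib libraries, against a background of 12.9% of tested genes, and 1 (Eif1) was higher, against 6.36%. edgeR's quasi-likelihood test on the recovered reads likewise called 0 genes. DESeq2 called 2 members, Eif2s1 lower (adjusted p = 0.0334) and Eif1 higher (adjusted p = 0.049), against 0.430% of genes called lower and 3.86% called higher. The wording below therefore gives where values lay and does not claim a change of a single gene.

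The median log2 fold change of the members, given as sorafenib minus carrier of log2(CPM + 1) throughout, was -0.69, against -0.26 over all tested genes. It was negative in 50 of the 55 members and in 67.8% of all tested genes. It was -0.39 with sorafenib replicate 1 alone (all tested genes -0.10) and -0.90 with sorafenib replicate 2 alone (all tested genes -0.40). With TMM factors, which move the median of all tested genes to -0.04, the members' median was -0.43, with 38 of 55 below both carriers (all tested genes 29.2%) and 6 above both (27.2%). With upper-quartile factors the median was -0.49, with 39 below both (31.7%) and 6 above both (24.5%). In the fits without 1 sorafenib library, limma called 39 members lower and 1 higher without replicate 1 (29.8% and 9.34% of tested genes). It called 2 lower and 0 higher without replicate 2 (1.27% and 1.76% of tested genes). The 2 called without replicate 2 were Eif2s1 (adjusted p = 0.0195, limma) and Eif3i (0.043), which were also among the 39.

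**Figure D1:**
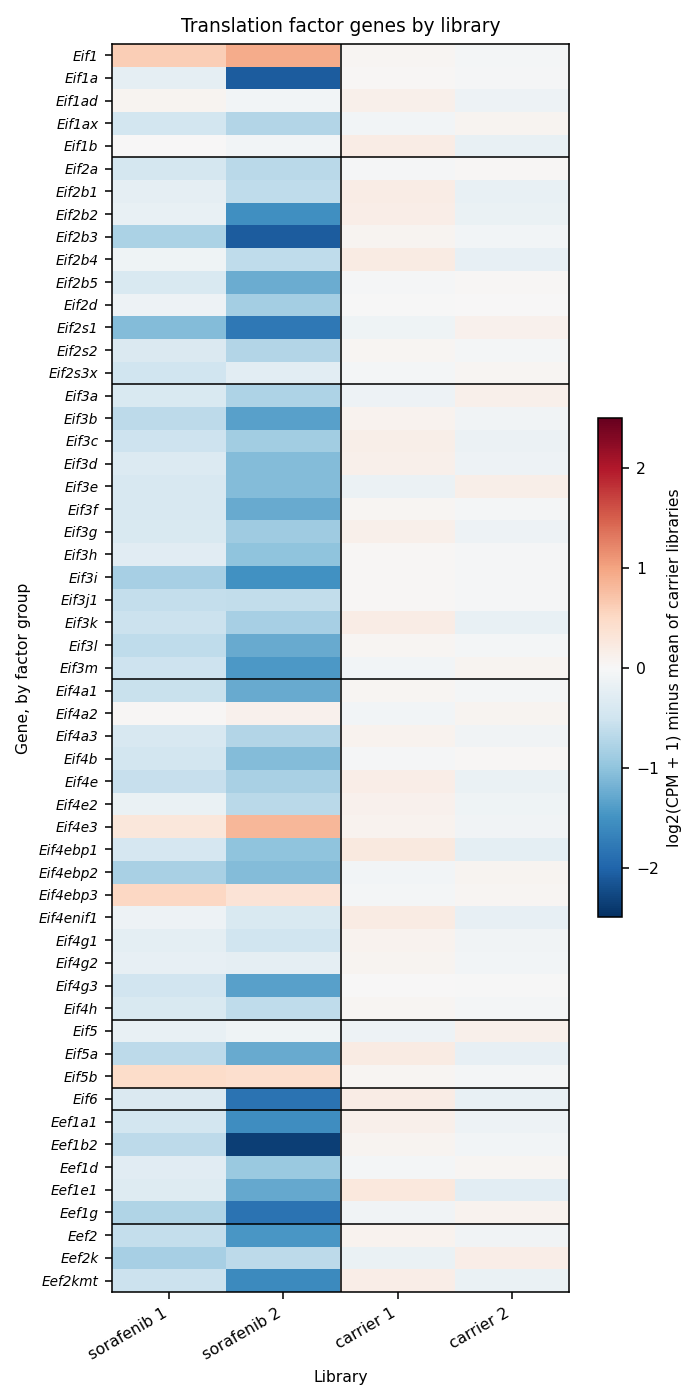
Colour map of the 55 tested translation factor genes (rows, by factor group) in each library (columns), as log2(CPM + 1) minus the mean of the carrier libraries. Blue fills most of both sorafenib columns and is deeper in replicate 2, while Eif1, Eif5b, Eif4e3 and Eif4ebp3 are red in both.

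**Figure D2:**
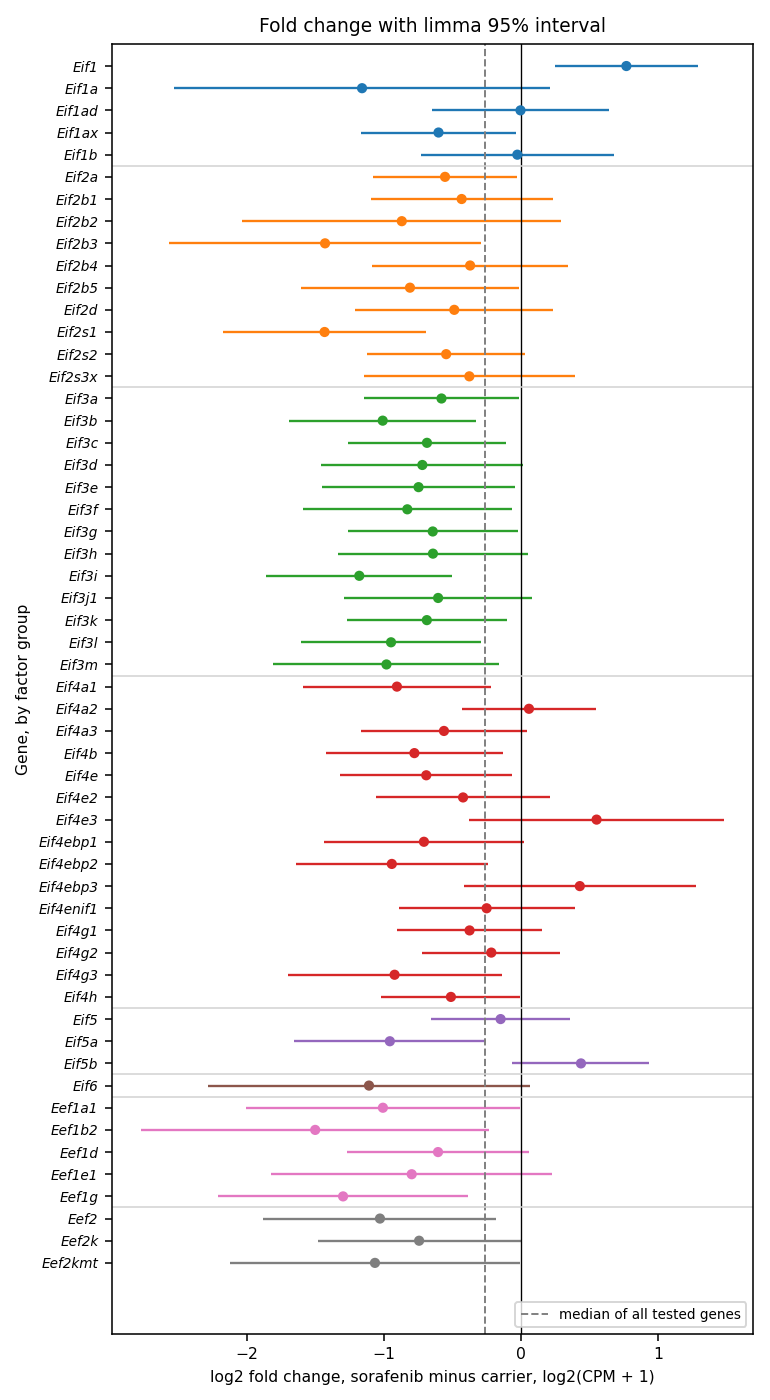
Log2 fold change of each tested member, sorafenib minus carrier (x axis, log2(CPM + 1) scale), with the 95% interval from limma as a line and the median of all tested genes (-0.26) dashed. All 13 eIF3 subunit genes lie left of that median, and the interval of Eif1 is the one that lies wholly above 0.

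The genes of the scanning factors eIF1 and eIF1A, which act together in start codon selection, lay on opposite sides of the carriers. Eif1 (chr11:100319885-100322096, plus strand), which encodes the factor that keeps the small subunit open while it scans, measured 190 and 235 CPM in sorafenib libraries, against 128 and 119 CPM in carrier libraries. The groups did not overlap, and the lower sorafenib library was above both carriers. The log2 fold change of Eif1 was 0.77 (SE 0.22, 95% interval 0.25 to 1.29, adjusted p = 0.240, limma), with 0.62 from sorafenib replicate 1 alone and 0.92 from replicate 2 alone. It had the highest signed log2 fold change of the 55 members, smaller in size than many of the negative ones. Of the exact 75-base stretches of its principal transcript, 25.6% also occur in transcripts of other genes. Eif1b, its close paralog, was at -0.02 (0.01 from replicate 1 alone) and overlapped.

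Eif1a (chr18:46597701-46616456, plus), one of the genes for eIF1A, measured 113 and 30.5 CPM in sorafenib libraries, against 135 and 130 CPM in carrier libraries. Replicate 2 set most of that gap, and the log2 fold change of -1.16 (SE 0.57, adjusted p = 0.299, limma) was -0.23 from replicate 1 alone. Its X-linked paralog Eif1ax measured 42.8 and 35.5 CPM in sorafenib libraries, against 56.8 and 62.4 CPM in carrier libraries, with a log2 fold change of -0.60 (SE 0.23, adjusted p = 0.258, limma). Both genes lay below both carriers. Within a library, the ratio of Eif1 to Eif1a CPM was 1.69 and 7.72 in sorafenib libraries, against 0.949 and 0.916 in carrier libraries. This ratio does not depend on how the libraries are scaled, but the shared stretches of Eif1 bear on it, and it was chosen after the values were seen and carries no test.

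eIF2 carries the initiator tRNA, and eIF2B exchanges its GDP for GTP. Of the 10 tested genes of this group, 9 lay below both carriers and 0 above (all tested genes 41.3% and 17.5%), with a median log2 fold change of -0.55. With TMM factors 5 of the 10 lay below both (all tested genes 29.2%). Eif2s1 (chr12:78861819-78887010, plus), the alpha subunit whose phosphorylation shuts initiation down under stress, measured 36.1 and 21.7 CPM in sorafenib libraries, against 71.3 and 83.9 CPM in carrier libraries. Both sorafenib libraries lay well under both carriers. Its log2 fold change was -1.43 (SE 0.30, 95% interval -2.17 to -0.69, adjusted p = 0.240, limma), with -1.08 from replicate 1 alone.

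The other subunits of eIF2 were closer to their carrier levels, at -0.54 for Eif2s2 (beta) and -0.38 for Eif2s3x (the X-linked gamma subunit). The ratio of Eif2s1 to Eif2s2 CPM was 0.687 and 0.533 in sorafenib libraries, against 1.01 and 1.28 in carrier libraries, so the groups did not overlap. This ratio too was chosen after the values were seen. Of the exact 75-base stretches of Eif2s2 and Eif2s3x, 22.4% and 35.7% also occur in transcripts of other genes, so their levels are uncertain. Among the 5 eIF2B subunits, Eif2b3 (gamma) was lowest, with 15.0 and 5.53 CPM in sorafenib libraries, against 28.0 and 25.1 CPM in carrier libraries. Its log2 fold change was -1.43 (SE 0.47, adjusted p = 0.247, limma), with -0.78 from replicate 1 alone and -2.07 from replicate 2 alone. Eif2b2, Eif2b5, Eif2b1 and Eif2b4 were at -0.87, -0.81, -0.43 and -0.37 (-0.20, -0.39, -0.22 and -0.10 from replicate 1 alone), and of these Eif2b4 overlapped. Eif2a and Eif2d, which deliver initiator tRNA by other routes, were at -0.55 and -0.49, the second at -0.13 from replicate 1 alone.

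eIF3 is the largest initiation factor, a scaffold on the small subunit. All 13 tested subunit genes lay below both carriers on plain CPM, with TMM factors and with upper-quartile factors, where 41.3%, 29.2% and 31.7% of all tested genes did. Of the 13, 10 were lower at an unadjusted p under 0.05, as were 12.9% of all tested genes. Their log2 fold changes were close together, between -1.18 and -0.58 with a median of -0.72. Eif3i (chr4:129591960-129600648, minus), a WD-repeat subunit, was lowest, with 84.3 and 52.0 CPM in sorafenib libraries, against 155 and 147 CPM in carrier libraries. Its log2 fold change was -1.18 (SE 0.28, adjusted p = 0.240, limma).

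Eif3b, the subunit that anchors the module to which Eif3i belongs, measured 136 and 83.9 CPM in sorafenib libraries, against 229 and 203 CPM in carrier libraries (log2 fold change -1.01, -0.66 from replicate 1 alone, SE 0.28, adjusted p = 0.240, limma). Eif3a, the largest subunit, measured 158 and 120 CPM in sorafenib libraries, against 190 and 224 CPM in carrier libraries (log2 fold change -0.58, SE 0.23, adjusted p = 0.258, limma). Both genes were lower in both sorafenib libraries, with replicate 2 below replicate 1. The remaining subunits, in order, were Eif3m (-0.98), Eif3l (-0.95), Eif3f (-0.83), Eif3e (-0.75), Eif3d (-0.72), Eif3k (-0.69), Eif3c (-0.68), Eif3g and Eif3h (-0.64 each) and Eif3j1 (-0.60). From replicate 1 alone, Eif3m was at -0.52, Eif3f at -0.40, Eif3e at -0.41, Eif3d at -0.35, Eif3g at -0.39 and Eif3h at -0.28. Adjacent values of the fit on all libraries differed by less than their standard errors.

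In the eIF4 group 11 of 15 tested genes lay below both carriers and 2 above (all tested genes 41.3% and 17.5%), with a median log2 fold change of -0.51. With TMM factors 9 lay below and 3 above (all tested genes 29.2% and 27.2%). The eIF4A helicase comes from either of 2 paralogs. Eif4a1 (chr11:69666936-69672423, minus) measured 223 and 136 CPM in sorafenib libraries, against 338 and 315 CPM in carrier libraries, with a log2 fold change of -0.90 (-0.55 from replicate 1 alone, SE 0.28, adjusted p = 0.242, limma). Eif4a2 (chr16:23107444-23114136, plus), its close paralog, measured 181 and 192 CPM in sorafenib libraries, against 170 and 188 CPM in carrier libraries, and the groups overlapped. Its log2 fold change was 0.06 (0.02 from replicate 1 alone, SE 0.20, 95% interval -0.43 to 0.55, adjusted p = 0.871, limma). The 95% interval of Eif4a1 (-1.59 to -0.21) overlaps that of Eif4a2, and the difference between these genes was not tested.

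Within a library, the ratio of Eif4a2 to Eif4a1 CPM was 0.813 and 1.41 in sorafenib libraries, against 0.503 and 0.596 in carrier libraries. The groups did not overlap, and Eif4a2 had more reads than Eif4a1 in sorafenib replicate 2. The ratio was chosen after the values were seen and carries no test. Of the exact 75-base stretches of the principal Eif4a1 transcript, 62.9% also occur in transcripts of other genes, mostly processed copies, against 7.69% for Eif4a2. How reads with several matches were counted is not given in the sources used here, so the level of Eif4a1 is uncertain.

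Eif4e (chr3:138526179-138559696, plus), the cap-binding subunit, measured 29.5 and 25.0 CPM in sorafenib libraries, against 49.7 and 39.6 CPM in carrier libraries (log2 fold change -0.69, SE 0.26, adjusted p = 0.258, limma). Eif4g1, the scaffold, measured 312 and 262 CPM in sorafenib libraries, against 394 and 350 CPM in carrier libraries (log2 fold change -0.37, -0.25 from replicate 1 alone, SE 0.22, adjusted p = 0.354, limma). Both were below both carriers, Eif4g1 by less. The other scaffold genes were at -0.92 (-0.48 from replicate 1 alone) for Eif4g3 and -0.21 for Eif4g2, which acts without the cap. The helicase partners Eif4b and Eif4h were at -0.78 (-0.47 from replicate 1 alone) and -0.51, Eif4a3, a helicase of the exon junction complex, at -0.56. The cap-binding paralog Eif4e2 was at -0.42 and the eIF4E transporter Eif4enif1 at -0.25 (-0.16 and -0.12 from replicate 1 alone).

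The genes of the 3 inhibitors of eIF4E did not share a direction. Eif4ebp1, the main 4E-BP substrate of mTOR, measured 65.6 and 43.3 CPM in sorafenib libraries, against 104 and 73.6 CPM in carrier libraries (log2 fold change -0.71, -0.41 from replicate 1 alone, SE 0.30, adjusted p = 0.264, limma). Eif4ebp2 measured 14.0 and 11.4 CPM in sorafenib libraries, against 24.1 and 26.4 CPM in carrier libraries (log2 fold change -0.94, SE 0.29, adjusted p = 0.241, limma). Both lay below both carriers, and the ratio of Eif4ebp1 to Eif4e CPM was alike in the groups, at 2.22 and 1.73 in sorafenib libraries and 2.10 and 1.86 in carrier libraries.

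Eif4ebp3, the least expressed of the 3, measured 2.46 and 2.10 CPM in sorafenib libraries, against 1.35 and 1.51 CPM in carrier libraries (log2 fold change 0.43, SE 0.35, adjusted p = 0.486, limma). Eif4e3, an atypical cap-binding paralog, measured 4.43 and 6.86 CPM in sorafenib libraries, against 3.71 and 3.21 CPM in carrier libraries (log2 fold change 0.55, 0.29 from replicate 1 alone, SE 0.38, adjusted p = 0.422, limma). Both were above both carriers, but their levels rest on few reads, and 64.2% of the 75-base stretches of Eif4ebp3 occur in another gene.

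**Figure D3:**
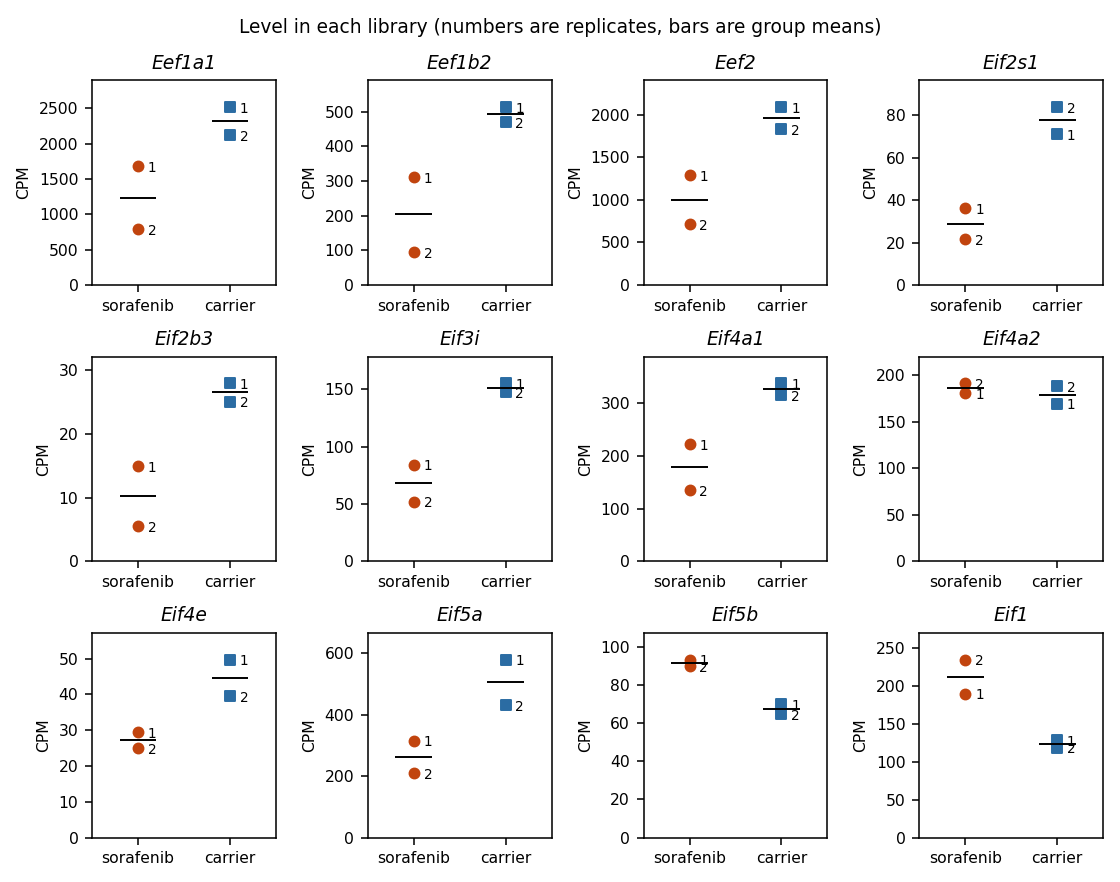
CPM of 12 members in each library (points numbered by replicate, y axes starting at 0), with sorafenib libraries left of carrier libraries and bars at the group means. The groups overlap for Eif4a2, both sorafenib libraries are higher for Eif5b and Eif1, and both are lower for the other 9 genes.

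The genes of the late initiation factors had no common direction. Eif5, the GTPase activator of eIF2, measured 207 and 217 CPM in sorafenib libraries, against 216 and 255 CPM in carrier libraries (log2 fold change -0.15, SE 0.21, adjusted p = 0.693, limma). The groups overlapped, and the sign turned with TMM factors (0.11). Eif5b (chr1:37998010-38055579, plus), the GTPase of subunit joining, measured 93.4 and 89.8 CPM in sorafenib libraries, against 69.9 and 64.7 CPM in carrier libraries (log2 fold change 0.44, SE 0.21, adjusted p = 0.286, limma). It lay above both carriers by a similar amount in both sorafenib libraries (0.47 and 0.41).

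The overlapping gene Rev1 shares 16.6% of the 75-base stretches of Eif5b. Eif5a (chr11:69916714-69921958, minus), which helps ribosomes through difficult peptide bonds and is the protein that carries hypusine, measured 316 and 209 CPM in sorafenib libraries, against 579 and 430 CPM in carrier libraries. Its log2 fold change was -0.96 (SE 0.29, adjusted p = 0.240, limma), and it lay below both carriers. Eif6, which keeps the large subunit apart until it is mature, measured 71.8 and 25.0 CPM in sorafenib libraries, against 106 and 81.1 CPM in carrier libraries (log2 fold change -1.11, SE 0.48, adjusted p = 0.269, limma). Replicate 1 alone gave -0.36 for Eif6.

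All 5 tested Eef1 genes lay below both carriers (all tested genes 41.3%), and 4 did with TMM factors (29.2%). Their median log2 fold change was -1.01 (-0.46 from replicate 1 alone). All 3 Eef2 genes lay below both carriers on both scales, with a median of -1.03 (-0.60 from replicate 1 alone). These medians were below that of eIF3 with both sorafenib libraries, but from replicate 1 alone eIF3 (-0.51) was below Eef1. Eef1a1 (chr9:78478449-78489151, minus), which delivers aminoacyl-tRNA and has the most reads of all members, measured 1685 and 787 CPM in sorafenib libraries, against 2520 and 2124 CPM in carrier libraries (log2 fold change -1.01, SE 0.41, adjusted p = 0.260, limma). Replicate 1 alone gave -0.46 and replicate 2 alone -1.55. Of its 75-base stretches 41.7% occur in other genes.

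Eef1b2 (chr1:63176825-63180486, plus), a subunit of the complex that recharges eEF1A with GTP, measured 312 and 95.9 CPM in sorafenib libraries, against 513 and 470 CPM in carrier libraries (log2 fold change -1.50, -0.65 from replicate 1 alone, SE 0.52, adjusted p = 0.251, limma). Eef1g, another subunit of that complex, measured 110 and 50.5 CPM in sorafenib libraries, against 174 and 196 CPM in carrier libraries (log2 fold change -1.30, -0.74 from replicate 1 alone, SE 0.37, adjusted p = 0.240, limma), and 56.5% of its stretches are shared with copies. Both were lower in both sorafenib libraries, with replicate 2 below replicate 1. Eef1d, the remaining exchange subunit, was at -0.60 (-0.27 from replicate 1 alone). Eef1e1, a component of the multi-tRNA-synthetase complex in spite of its name, measured 17.7 and 8.58 CPM in sorafenib libraries, against 27.0 and 18.3 CPM in carrier libraries (log2 fold change -0.80, -0.31 from replicate 1 alone, SE 0.42, adjusted p = 0.321, limma).

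Eef2 (chr10:81176631-81182498, plus), the translocase, measured 1286 and 715 CPM in sorafenib libraries, against 2089 and 1831 CPM in carrier libraries (log2 fold change -1.03, -0.60 from replicate 1 alone, SE 0.35, adjusted p = 0.250, limma). Its kinase Eef2k, which switches eEF2 off, measured 10.8 and 12.4 CPM in sorafenib libraries, against 17.9 and 22.4 CPM in carrier libraries (log2 fold change -0.74, SE 0.30, adjusted p = 0.260, limma). Its methyltransferase gene Eef2kmt measured 13.0 and 5.72 CPM in sorafenib libraries, against 21.9 and 17.0 CPM in carrier libraries (log2 fold change -1.06, -0.53 from replicate 1 alone, SE 0.44, adjusted p = 0.260, limma). All 3 lay below both carriers, and Eef2k was one of the few members at which sorafenib replicate 2 was not the lower library.

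Eef1a1 and Eef2 together took up 36.3% and 28.5% of the members' reads in sorafenib libraries, against 39.5% and 37.5% in carrier libraries. The eIF4 genes took up 22.9% and 28.9% in sorafenib libraries, against 20.8% and 21.6% in carrier libraries. Neither share overlapped between the groups.

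The distance between the sorafenib libraries was a feature of most members. Sorafenib replicate 2 was below replicate 1 in 49 of the 55 members (89.1%), against 68.1% of all tested genes. Eif1a, Eef1b2, Eif6 and Eif2b2 had the widest gaps, while Eif5b, Eif4g2, Eif5, Eif3j1, Eif1b and Eif4a2 were nearly level between the replicates. The chi-square per degree of freedom between replicates over the members was 82.7 for the sorafenib pair and 13.4 for the carrier pair. For the libraries as a whole it was 45.4 and 9.90, so the sorafenib pair was also the wider one there.

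**Figure D4:**
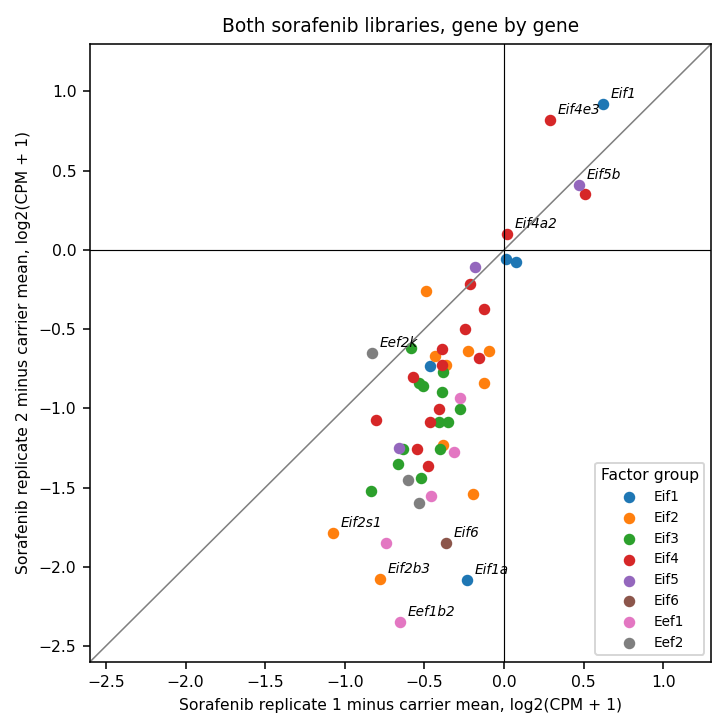
Each point is a tested member, placed by its log2(CPM + 1) minus the carrier mean in sorafenib replicate 1 (x axis) and in sorafenib replicate 2 (y axis), coloured by factor group; the diagonal marks equal values. Most points lie in the lower left and under the diagonal, with Eef1b2 at -0.65 and -2.35 and Eif1 at 0.62 and 0.92.

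Per length of the principal transcript, on the scale of CPM per kilobase averaged over each group, Eef1a1 led in both groups with 689 in sorafenib and 1294 in carrier libraries. Eef2 followed with 324 in sorafenib and 634 in carrier libraries, and then came Eif5a with 183 in sorafenib and 351 in carrier libraries. Eif1 ranked 4 of 54 in sorafenib libraries, with 161 CPM per kilobase, and 11 in carrier libraries, with 93.6. Eif4a2 ranked 9 in sorafenib and 15 in carrier libraries, at 84.4 and 81.0 CPM per kilobase. Eef1g went the other way, ranking 18 in sorafenib and 10 in carrier libraries, at 43.0 and 99.2 CPM per kilobase. Eif4e was low at 5.46 CPM per kilobase in sorafenib and 8.95 in carrier libraries, while Eif4g1 stood at 51.0 in sorafenib and 66.0 in carrier libraries. Apart from Eif3j1 (2.42 in sorafenib and 3.78 in carrier libraries), the eIF3 subunits lay between 27.1 and 94.1 CPM per kilobase in sorafenib libraries and between 40.4 and 152 in carrier libraries. Eif4g2 was left out because the principal transcript of the annotation is a fragment.

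The 6 members that were not tested were near or at 0. Eif2s3y, the Y-linked gamma subunit of eIF2, Eif4e1b, an oocyte cap-binding paralog, and Eif2c5, which the annotation lists as a lincRNA, had 0 reads in all 4 libraries, which allows up to 0.738 CPM in the shallowest. Eef1a2, the eEF1A of muscle and neurons, had 0 reads in both sorafenib libraries and at most 1 in a carrier library. Eif5a2, the paralog of Eif5a, had 0 in both sorafenib libraries and 1 and 2 reads in the carrier libraries. Eif3j2 had 2 and 3 reads in sorafenib libraries and 3 and 4 in carrier libraries, and shares long stretches with Eif3j1.

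The 7 factor groups with several genes kept the order of their medians with TMM and upper-quartile factors, though not from replicate 1 alone. With TMM factors the medians were -0.75 for Eef1, -0.77 for Eef2, -0.47 for eIF3, -0.30 for eIF2 and -0.26 for eIF4, against -0.04 for all tested genes. The small groups moved across 0, with the Eif1 group at 0.22 (-0.02 on plain CPM) and the Eif5 group at 0.11 (-0.15 on plain CPM). The cytosolic ribosomal protein genes, 76 of them tested, had a median of -0.99 on plain CPM and -0.73 with TMM factors (-0.47 from replicate 1 alone). Of the 76, 71 lay below both carriers (all tested genes 41.3%). The 10 members listed for known TOP tracts were Eef1a1, Eef1b2, Eef1d, Eef1g, Eef2, Eif3a, Eif3e, Eif3f, Eif3h and Eif4b. Of these, 10 lay below both carriers, as did 45 of the 55 members and 41.3% of all tested genes. Their median was -0.80 (-0.43 from replicate 1 alone). These genes are part of the factor groups above and are not a separate result.

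**Figure D5:**
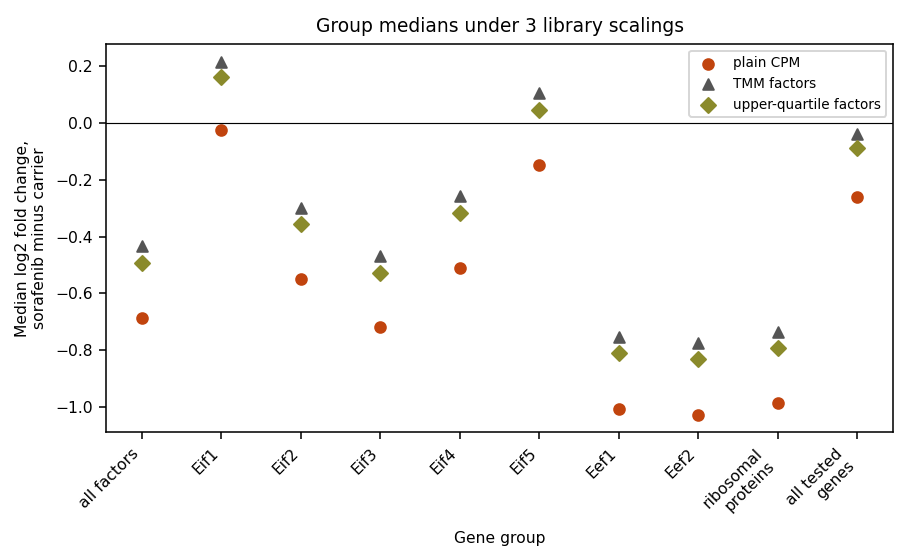
Median log2 fold change, sorafenib minus carrier (y axis), of the factor groups, the ribosomal protein genes and all tested genes (x axis) on plain CPM, with TMM factors and with upper-quartile factors. Of the groups drawn, both elongation groups and the ribosomal protein genes lie lowest under each of the 3 scalings, and the Eif1 and Eif5 groups cross 0.

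The other genes of the pathway were read from the same fit, in which limma called 0 genes of every list. Of 15 accessory initiation factors, 11 lay below both carriers and 1 above (all tested genes 41.3% and 17.5%), with a median log2 fold change of -0.44 (-0.27 from replicate 1 alone). Pabpc1, the poly(A)-binding protein that joins the mRNA ends through eIF4G, measured 272 and 144 CPM in sorafenib libraries, against 424 and 385 CPM in carrier libraries (log2 fold change -1.02, -0.57 from replicate 1 alone, SE 0.33, adjusted p = 0.243, limma). Pdcd4, an inhibitor of eIF4A, measured 61.0 and 43.1 CPM in sorafenib libraries, against 86.5 and 92.3 CPM in carrier libraries (log2 fold change -0.79, SE 0.25, adjusted p = 0.243, limma). Both were below both carriers. Mcts2 and Paip1 had the smallest p among the genes of that list with a positive value, at 0.22 and 0.17 (adjusted p = 0.727 and 0.729, limma), against 0.34 and -0.10 from replicate 1 alone.

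Of 7 termination and rescue factors, 4 lay below both carriers and 0 above (all tested genes 41.3% and 17.5%), with a median of -0.34 (-0.18 from replicate 1 alone). With TMM factors 2 lay below and 2 above (all tested genes 29.2% and 27.2%), and the median was -0.09. Gspt1 (eRF3a), which works with eRF1 at stop codons, measured 47.9 and 38.1 CPM in sorafenib libraries, against 80.6 and 75.6 CPM in carrier libraries (log2 fold change -0.85, SE 0.23, adjusted p = 0.240, limma). Etf1 (eRF1) was at -0.66 (adjusted p = 0.258, limma), also below both carriers, and Gtpbp1 was at 0.01 (-0.07 from replicate 1 alone).

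Of 15 regulatory genes (eIF2 kinases, their phosphatase subunits, mTOR complex genes and the MNK and S6 kinases), 4 lay below both carriers and 3 above (26.7% and 20%, against 41.3% and 17.5% of all tested genes), with a median of -0.13 (0.12 with TMM factors). Eif2ak3 (PERK), the eIF2 kinase of the endoplasmic reticulum, measured 17.5 and 16.0 CPM in sorafenib libraries, against 35.1 and 37.0 CPM in carrier libraries (log2 fold change -1.06, SE 0.25, adjusted p = 0.240, limma). The replicates of each group lay close together. Mknk1, a kinase that phosphorylates eIF4E, measured 22.1 and 19.3 CPM in sorafenib libraries, against 43.3 and 35.7 CPM in carrier libraries (log2 fold change -0.90, SE 0.26, adjusted p = 0.240, limma). Its paralog Mknk2 measured 191 and 219 CPM in sorafenib libraries, against 182 and 177 CPM in carrier libraries (log2 fold change 0.19, 0.09 from replicate 1 alone, SE 0.20, adjusted p = 0.600, limma). Deptor, an inhibitor of mTOR, measured 116 and 170 CPM in sorafenib libraries, against 82.4 and 85.8 CPM in carrier libraries (log2 fold change 0.73, 0.46 from replicate 1 alone, SE 0.25, adjusted p = 0.250, limma). Mknk2 and Deptor were above both carriers, Mknk1 and Eif2ak3 below.

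All 8 enzymes that modify eIF5A and eEF2 (hypusine and diphthamide) had a negative log2 fold change (all tested genes 67.8%), with 5 below both carriers (41.3%) and a median of -0.64 (-0.16 from replicate 1 alone). With TMM factors 2 of the 8 lay below both (29.2%). Dph5, a diphthamide methyltransferase, was lowest at -1.05 (adjusted p = 0.253, limma), and Dph3 was at -0.66 (-0.30 from replicate 1 alone, adjusted p = 0.313, limma). The 10 mitochondrial translation factors had a median of -0.24 (-0.11 from replicate 1 alone), close to that of all genes. Of the 10, 5 lay below both carriers and 0 above (all tested genes 41.3% and 17.5%). With TMM factors 3 of the 10 lay below and 2 above, near the share of all tested genes (29.2% and 27.2%). Guf1 was at -0.61, Tsfm at -0.57 and Mtif3, the gene of that list with a positive value, at 0.25 (adjusted p = 0.297, 0.312 and 0.686, limma). From replicate 1 alone Tsfm was at -0.36 and Mtif3 at 0.47.

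Marker lists of other cell types were read in the same way, against the 41.3% of all tested genes below both carriers and 17.5% above, and limma called 0 of their genes. DESeq2 called 2 macrophage genes, 4 stellate and fibroblast genes and 1 oncofetal and tumor gene (Myc) lower. It called 3 hepatocyte genes (Tat, Cps1 and Cyp2e1) higher. Over all genes it called 0.430% lower and 3.86% higher. The 10 macrophage genes summed to 214 and 92.3 CPM in sorafenib libraries, against 402 and 454 CPM in carrier libraries, with 10 of 10 below both carriers. The 10 endothelial genes summed to 237 and 106 CPM in sorafenib libraries, against 290 and 340 CPM in carrier libraries, with 7 of 10 below both and a median log2 fold change of -0.96 (-0.42 from replicate 1 alone). The 10 stellate and fibroblast genes summed to 308 and 238 CPM in sorafenib libraries, against 413 and 613 CPM in carrier libraries, with 6 of 10 below both and 1 above. The biliary genes summed to 521 and 107 CPM in sorafenib libraries, against 473 and 674 CPM in carrier libraries, with 0 of 6 tested below both. Nearly all of that sum is Spp1 (515 and 96.1 CPM in sorafenib libraries, against 467 and 657 CPM in carrier libraries). Red cell genes summed to 208 and 48.2 CPM in sorafenib libraries, against 308 and 243 CPM in carrier libraries, with 3 of 5 below both. Lymphocyte genes summed to 30.7 and 19.1 CPM in sorafenib libraries, against 33.7 and 26.2 CPM in carrier libraries, with 2 of 7 tested below both and 1 above. Neutrophil genes summed to 20.9 and 5.91 CPM in sorafenib libraries, against 25.6 and 27.7 CPM in carrier libraries, with 2 of 3 tested below both and Ly6g at 0 in every library. Of 10 hepatocyte genes, 5 lay above both carriers and 3 below. The part of these cell types in the levels of the translation factor genes was not tested.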

How the data were processed

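The 4 mRNA libraries of mouse liver tumor tissue were grouped by the labelled treatment. The deposited tables, 1 a library, list 39179 genes, and their values are CPM by their sums (1000000 per library). In a library all values are multiples of 1 step, and dividing by it turned 100% of the values into read numbers whole to within 0.01. GRCm38 was the build and edgeR 3.22.5, Subread 1.6.3 and STAR 2.6.1c were among the tools, per the submitters' processing notes. Per the labels' protocols the libraries were poly(A)-selected and stranded, from 100 ng RNA, read single-end with 75 cycles. How strand and multiply mapped reads were handled in counting is not given in the sources used here, so overlapping, antisense and near-identical genes are uncertain.

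Genes at 1 CPM or more in at least 2 libraries (13149) were tested with limma 3.58.1 (R 4.3.3) on log2(CPM + 1), with empirical Bayes moderation, a mean-variance trend and Benjamini-Hochberg adjustment over all tested genes (threshold 0.05). Fold changes on this scale understate those of low genes. As alternatives, edgeR 4.0.16 (0 genes called) and DESeq2 1.42.0 (499 called, 1530 left without an adjusted p) were run on the recovered reads, and the pseudocount, the filter, the library scaling and the libraries used were varied. The replicates were not repeats of 1 library: chi-square divided by its degrees of freedom was 45.4 between the sorafenib and 9.90 between the carrier libraries.

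Members and lists were chosen with earlier results of these data known. Full statistics are given for 19 chosen members and for every member above both carriers. They are also given for the members with the 2 smallest p-values on either side of 0 in each factor group. The genes picked in the same way from each pathway list are all named, some of them without library values, SE or adjusted p. Coordinates and transcript lengths come from GENCODE M21 (37693 of the 39179 identifiers matched, GRCm38) and promoter windows from RefSeq (GRCm38.p6).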

Additional observations from a re-analysis of the deposited data

How the results depend on the processing

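With 2 libraries a group, the library set decides the calls. Leaving out each library in turn gave 0 to 5149 genes and 0 to 40 members called by limma. The high ends came without sorafenib replicate 1. Without sorafenib replicate 2 the counts were 398 genes and 2 members, and without either carrier library they were 0. A lone library was assumed to vary like the other group. DESeq2 called 499 genes and 2 members. The members' median log2 fold change ran from -0.90 to -0.39 over these fits, that of eIF3 from -1.08 to -0.51, and that of the Eif1 group from -0.22 to 0.12. The Eif1 group was at 0.22 (TMM and edgeR), 0.23 (RLE), 0.16 (upper quartile) and 0.24 (DESeq2). The Eif5 group and Eif5 itself were at 0.11 (TMM and edgeR), 0.12 (RLE), 0.047 (upper quartile) and 0.13 (DESeq2). The eIF2 group was at -0.28 (RLE) and -0.29 (DESeq2), and the eIF4 group at -0.26 (TMM and edgeR) and -0.24 (RLE and DESeq2). These scalings also moved the median of all tested genes upward, from -0.26 on plain CPM to -0.04 with TMM factors. Sorafenib replicate 2 had the lowest factor under each (0.830 TMM, 0.812 RLE and 0.868 upper quartile). Among single genes, the sign also turned for Eif4a2 (-0.014 to 0.13 over the fits without 1 library), Paip1 (-0.097 to 0.43) and Gtpbp1 (-0.068 to 0.092), in 1 or 2 fits each; the cause was not tested.

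Whether the shared replicate numbers pair the samples was not settled. The correlation of deviations was 0.15, and 2 pairs are too few to decide it. With the replicate number as a block, limma called 0 genes and 0 members. The smallest adjusted p among members was then 0.111 (limma), with 3185 genes at an unadjusted p under 0.05. Without the block these were 0.240 (limma) and 2529 genes. Depth limits members of a few CPM, such as Eif4ebp3.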
